A study of Mus musculus with 24 samples.

Results

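The 9 genes described here encode liver lipases and regulators of lipases: *Pnpla2*, *Pnpla3*, *Lipe*, *Mgll*, *Abhd5*, *G0s2*, *Lipc*, *Lipa*, and *Angptl4*. As a set they are called lipase genes below, although *Abhd5*, *G0s2*, and *Angptl4* encode regulators. The 9 were chosen by name, matched to Ensembl identifiers through the mouse annotation, and are 9 of the 23972 genes in the deposited count table. All 9 were detected, and no filter on low values was applied to them. RNA-Seq was performed on livers of female mice that were 12 to 14 weeks old at the start, housed at 22°C, and fed a 60% high-fat diet, which began 4 weeks before treatment with vehicle or FGF21. Mice were euthanized 8 weeks after treatment. Controls carried *Lmna* alleles with loxP sites around exons 10 and 11 and lacked Cre. In *Lmna*ADKO mice, a model of lipodystrophy, the same alleles were recombined by Cre under the adiponectin (*Adipoq*) promoter, which is active in adipocytes and not in hepatocytes, so that the liver itself was not the targeted tissue. The 24 libraries came from 7 vehicle-treated controls, 3 FGF21-treated controls, 6 vehicle-treated *Lmna*ADKO mice, and 8 FGF21-treated *Lmna*ADKO mice. The labels call the treated groups "Rescue", which was read as FGF21, given by an adeno-associated virus, from the study's methods.

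Liver stores fatty acids as triglyceride in lipid droplets and takes it apart again by several routes. At the droplet surface, adipose triglyceride lipase (ATGL, encoded by *Pnpla2*), hormone-sensitive lipase (HSL, *Lipe*), and monoacylglycerol lipase (MGL, *Mgll*) remove fatty acids in turn, with CGI-58 (*Abhd5*) activating ATGL and G0S2 (*G0s2*) inhibiting it. In lysosomes, acid lipase (*Lipa*) degrades cholesteryl esters and triglycerides, whereas hepatic lipase (*Lipc*) is secreted to act on lipoproteins at the vessel wall, and ANGPTL4 (*Angptl4*) is a secreted inhibitor of lipoprotein lipase.

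Libraries held between 19863304 and 21510054 counted reads, and all values are given as CPM (reads of a gene per 1000000 reads of its library) after TMM scaling. *Lmna*, the targeted gene, was detected in all libraries, with 18.6 ± 2.47 CPM (SD, n = 7) in controls given vehicle and 26.7 ± 2.57 (n = 6) in *Lmna*ADKO livers given vehicle (log2 fold change 0.52, adjusted p = 0.00322). *Fgf21* counts did not set the treated groups apart, with medians of 3.80 CPM with FGF21 and 2.80 with vehicle in controls, and 4.81 and 8.04 in *Lmna*ADKO mice. Longer genes had relatively lower expression in 3 libraries. These were replicate 7 of FGF21-treated *Lmna*ADKO mice, replicate 3 of FGF21-treated controls, and replicate 3 of vehicle-treated controls. Each gene's log2 CPM was taken as a deviation from its median over libraries of the same genotype. The slopes of these deviations on log2 exonic length were between -0.331 and -0.154, against -0.109 to 0.128 in the other 21. The 5 hepatocyte markers were abundant in every library, the 5 adipocyte markers summed to at most 3.95 CPM in any library, and each of the 4 measured genes of exocrine pancreas was at or near 0.

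Per kilobase of exon, *G0s2* had the highest level of the 9 genes over all libraries, at 109.8 CPM per kilobase, followed by *Lipc* at 69.5, *Mgll* at 57.2, *Angptl4* at 44.3, *Pnpla2* at 40.4, and *Lipa* at 32.6. *Abhd5* and *Lipe* stood lower, at 4.33 and 3.01 CPM per kilobase, and *Pnpla3* was near the limit of detection at 0.519. These per-kilobase levels are averages over 4 groups that differ, and their order changed from group to group. In vehicle-treated *Lmna*ADKO livers, *Lipc* (39.2 ± 9.21 CPM per kilobase, SD, n = 6) was below *Mgll* (67.2 ± 10.1) and did not differ from *Lipa* (42.4 ± 4.63) beyond their spread. In vehicle-treated controls, for example, *Angptl4* (38.1 ± 4.24 CPM per kilobase, SD, n = 7) and *Pnpla2* (34.0 ± 4.89) lay within each other's spread, and *Lipa* was at 25.5 ± 2.64. *G0s2* has by far the shortest exonic sequence, at 871 bases against 1548 to 6780 for the others.

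The windows around the transcription starts of 4 genes are shown because these genes were called between genotypes under at least 1 treatment, as was *Angptl4*. They are RefSeq sequences on GRCm38.p6, 300 bases each, from 250 bases before the start to 50 after it, and are written on the strand of the gene. Windows were found for 8 of the 9 genes, all but *Angptl4*. *Lipc* has 2 windows, of which the upstream one is shown. Capitals mark the letters of 7 motifs, searched on both strands.
Lipc, chr9:70952172-70952471, minus strand: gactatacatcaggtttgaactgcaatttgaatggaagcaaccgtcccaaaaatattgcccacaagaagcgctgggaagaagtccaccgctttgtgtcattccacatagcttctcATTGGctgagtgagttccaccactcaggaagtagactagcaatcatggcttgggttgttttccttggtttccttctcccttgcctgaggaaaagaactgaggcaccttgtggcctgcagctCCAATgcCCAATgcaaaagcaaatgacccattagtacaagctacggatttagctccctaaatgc
Lipa, chr19:34527425-34527724, minus strand: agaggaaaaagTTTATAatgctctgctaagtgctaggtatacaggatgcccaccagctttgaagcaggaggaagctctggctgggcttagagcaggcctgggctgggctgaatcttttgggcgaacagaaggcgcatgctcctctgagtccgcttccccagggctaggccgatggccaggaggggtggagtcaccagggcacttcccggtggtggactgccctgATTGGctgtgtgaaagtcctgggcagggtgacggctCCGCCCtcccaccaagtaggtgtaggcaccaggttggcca
Abhd5, chr9:122351366-122351665, plus strand: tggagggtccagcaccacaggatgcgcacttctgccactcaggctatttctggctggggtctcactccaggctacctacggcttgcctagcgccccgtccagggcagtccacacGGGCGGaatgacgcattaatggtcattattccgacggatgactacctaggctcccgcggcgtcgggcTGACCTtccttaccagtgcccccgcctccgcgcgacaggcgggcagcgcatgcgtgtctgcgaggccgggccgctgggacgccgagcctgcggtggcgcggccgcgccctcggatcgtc
G0s2, chr1:193273139-193273438, minus strand: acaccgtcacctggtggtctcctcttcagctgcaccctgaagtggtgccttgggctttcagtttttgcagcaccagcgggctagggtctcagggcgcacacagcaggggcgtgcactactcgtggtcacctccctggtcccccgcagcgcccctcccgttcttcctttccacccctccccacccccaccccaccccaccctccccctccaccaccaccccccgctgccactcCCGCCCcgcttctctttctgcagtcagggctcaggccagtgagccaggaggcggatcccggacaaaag
The *Lipc* window shown held 3 matches to the CCAAT box (CCAAT), which is in 37.4% of the 32851 windows of the table. The *Lipa* window held 1 CCAAT, 1 TATA box far from the start (TATAAA, in 13.6% of windows), and 1 GC box (GGGCGG, in 35.7%). The *Abhd5* window held 1 GC box and 1 nuclear receptor motif (AGGTCA, in 16.3%), and the *G0s2* window held 1 GC box. No match overlapped another in these windows. The E-box CACGTG (7.15% of windows), the HNF1 motif GTTAAT (7.1%), and the sterol element TCACNCCAC (1.24%) were not among the letters of these windows. A match describes the letters only.

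Between *Lmna*ADKO and control livers given vehicle, 3 of the 9 genes were called: *Lipc* was lower, and *Lipa* and *Abhd5* were higher. A gene counts as called where its adjusted p was below 0.05 and its fold change exceeded 1.5, in edgeR's quasi-likelihood test with Benjamini-Hochberg adjustment over all genes. By this rule 8.48% of all genes were called in this comparison, 1227 up and 806 down, and 6481 had an unadjusted p under 0.05. The median log2 fold change was 0.08 over the 9 genes and 0.0027 over all genes, and 6 of the 9 estimates were above 0.

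*Lipc*, whose enzyme acts on lipoproteins outside the hepatocyte, ranged from 167 to 287 CPM in vehicle-treated controls (median 220) and from 57.0 to 116 in vehicle-treated *Lmna*ADKO mice (median 83.4). Every *Lmna*ADKO library lay below every control library. The means were 219 ± 42.7 CPM (SD, n = 7) and 84.3 ± 19.8 (n = 6), a log2 fold change of -1.38 (SE 0.157, adjusted p = 6.25e-07), or 0.385 times the control level. With FGF21, the 3 controls had 202, 228, and 260 CPM, and the *Lmna*ADKO libraries had 65.4 to 130 (median 111), again with no overlap. The log2 fold change was -1.10 (SE 0.176, adjusted p = 0.000406). *Lipc* was the only one of the 9 genes called in both genotype comparisons under all alternatives tried.

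*Lipa*, the lysosomal acid lipase, was higher in *Lmna*ADKO livers with either treatment. Vehicle-treated controls had 140 to 192 CPM (median 172) and vehicle-treated *Lmna*ADKO livers 233 to 321 (median 294), without overlap. This was a 1.67-fold rise, from 173 ± 17.9 CPM (SD, n = 7) to 287 ± 31.4 (n = 6), with a log2 fold change of 0.74 (SE 0.121, adjusted p = 9.22e-05). The 3 FGF21-treated controls had 147, 152, and 138 CPM, and the 8 FGF21-treated *Lmna*ADKO livers had 194 to 352 (median 231), all above the 3 controls. The log2 fold change was again 0.74 (SE 0.154, adjusted p = 0.00529). The latter call was lost when only these groups entered the fit (0.73, adjusted p = 0.0671) or only animals with 4-digit numbers (0.65, adjusted p = 0.0697).

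Other cell types of the liver also express *Lipa*, and in bulk tissue a change in the number of such cells and a change in RNA per cell cannot be told apart. The summed level of the 6 macrophage markers was not higher in *Lmna*ADKO livers (246 to 445 CPM with vehicle, against 343 to 484 in controls). Of the 6, 1 was called with vehicle, *Gpnmb*, which rose (log2 fold change 2.19, adjusted p = 0.0451), beside 8.48% of all genes. That sum mostly reflects *Clec4f* and *Csf1r*, at means of 224 and 113 CPM in vehicle-treated controls, against 1.99 for *Trem2* and 2.40 for *Gpnmb*. The estimate was -0.53 for *Clec4f* (adjusted p = 0.124) and 1.19 for *Trem2* (adjusted p = 0.128), and 3 of the 6 were positive. The summed level of the 5 stellate cell markers was 245 to 336 CPM in vehicle-treated *Lmna*ADKO livers and 189 to 242 in controls, without overlap. Of the 5, 1 was called (*Lrat*, log2 fold change 0.74, adjusted p = 0.0135), beside 8.48% of all genes, and 4 estimates were positive. The endothelial list was not higher in sum (178 to 228 against 194 to 244 CPM). Of its 5 genes, 1 was called (*Lyve1*, log2 fold change 1.93, adjusted p = 5.82e-07), beside the same share of all genes, and 2 estimates were positive. *Pecam1* rose (0.30, adjusted p = 0.0268) and *Stab2* fell (-0.30, adjusted p = 0.0482), both under the fold limit. The 4 cholangiocyte markers summed to 7.06 to 10.1 CPM against 3.74 to 7.96, with all 4 estimates positive and 0 called. The part of these cells in the *Lipa* difference was not tested.

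*Abhd5*, which encodes the coactivator of ATGL, had 18.8 to 22.4 CPM in vehicle-treated controls (median 19.1) and 28.3 to 31.4 in vehicle-treated *Lmna*ADKO livers (median 30.6), a clear gap in a gene with little spread. The log2 fold change was 0.60 (SE 0.0984, adjusted p = 7.99e-05, 1.52-fold), just above the limit of 1.5. When the digits of the animal number (3 or 4) entered the fit, it was 0.52 (adjusted p = 0.0037). That is under the fold limit, so the call was lost. With FGF21, *Abhd5* had 415, 401, and 442 reads (19.7 to 25.7 CPM) in the 3 controls and 24.2 to 39.7 (median 28.1) in *Lmna*ADKO livers, with 6 of 8 above all controls. This difference of 0.42 did not pass the test (SE 0.123, adjusted p = 0.0517). An antisense transcript, *A730085K08Rik*, shares 950 exonic bases with *Abhd5*. Libraries were made with strand marking, but the sources used here do not state whether strand was used in counting.

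**Figure D1:**
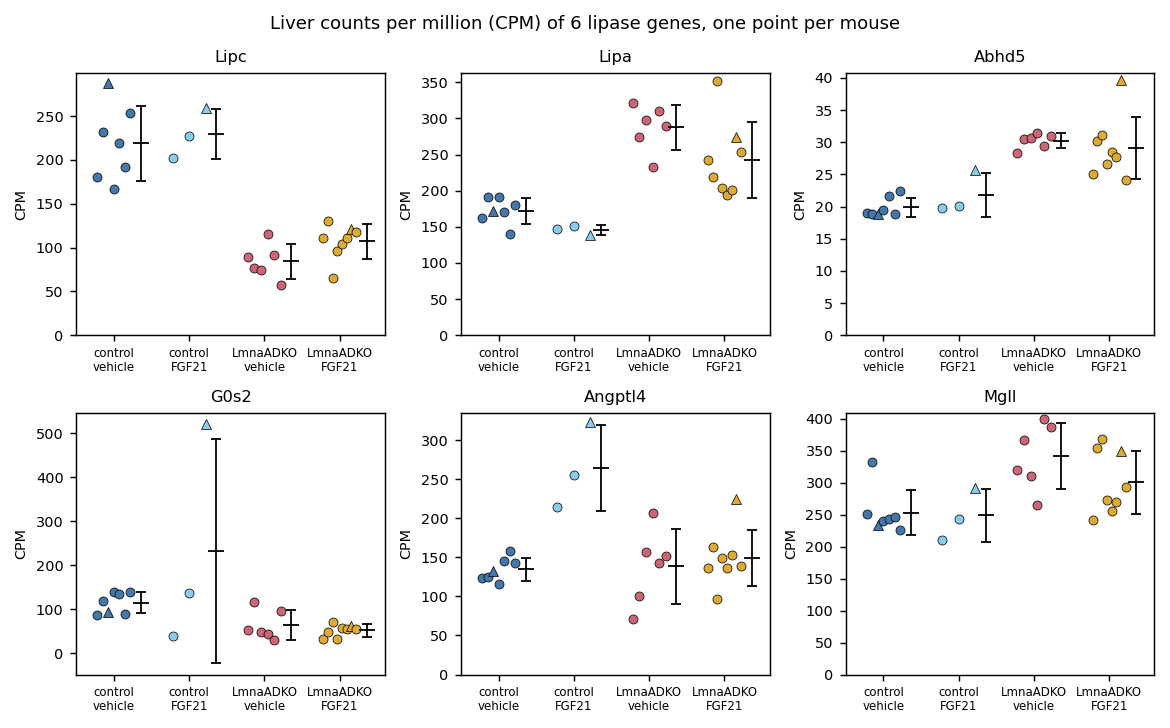
CPM (y axes, linear, from 0 where the error bars allow) of 6 lipase genes in each library, by genotype and treatment (x axes). Points are mice, triangles mark the 3 libraries in which longer genes had relatively lower expression, and black bars give the mean ± SD. *Lipc* and *Lipa* of *Lmna*ADKO mice do not overlap controls under either treatment, and the spread of *G0s2* in FGF21-treated controls comes from 3 libraries at 39.9, 137, and 520 CPM.

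The lipases that act in turn on the lipid droplet differed less with genotype. *Pnpla2* had 79.4 to 121 CPM (median 110) in vehicle-treated controls and 84.5 to 125 (median 113) in *Lmna*ADKO livers, which overlapped almost completely. Its log2 fold change was 0.08 (95% interval -0.19 to 0.35, adjusted p = 0.764). *Lipe* had 15.9 to 20.3 CPM in vehicle-treated controls and 11.7 to 21.6 in *Lmna*ADKO livers, and its log2 fold change was -0.15 (95% interval -0.42 to 0.12, adjusted p = 0.476). The 5 adipocyte markers were near 0 in these livers, and *Lipe* shares 918 exonic bases with the antisense transcript *4732471J01Rik*. *Mgll* had 226 to 332 CPM (median 243) in vehicle-treated controls and 266 to 400 (median 343) in *Lmna*ADKO livers. Its difference of 0.43 on the log2 scale (SE 0.125, adjusted p = 0.0177, 1.35-fold) passed the p threshold and stayed under the fold limit, with 6 of 6 *Lmna*ADKO libraries above the control median.

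*Pnpla3*, a droplet-associated relative of ATGL that is under nutritional control, had the largest fold change with vehicle and the fewest reads among the 9 genes. It had 1 to 12 reads per library in vehicle-treated controls and 1 to 45 in vehicle-treated *Lmna*ADKO livers, at means of 0.285 ± 0.258 CPM (SD, n = 7) and 1.07 ± 0.842 (n = 6), which overlapped. The log2 fold change was 1.91 (SE 0.658, adjusted p = 0.0525). With FGF21, the 3 controls had 6, 3, and 1 reads and the *Lmna*ADKO livers 9 to 61, without overlap, a log2 fold change of 2.89 (SE 0.957, adjusted p = 0.0947). DESeq2 in place of edgeR called *Pnpla3* in both comparisons (adjusted p = 0.0166 and 0.0108). It was also called with vehicle after edgeR's filter on low counts (adjusted p = 0.029) and in edgeR with the digits of the animal number in the fit (2.56, adjusted p = 0.0286), so its call depended on these choices.

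**Figure D2:**
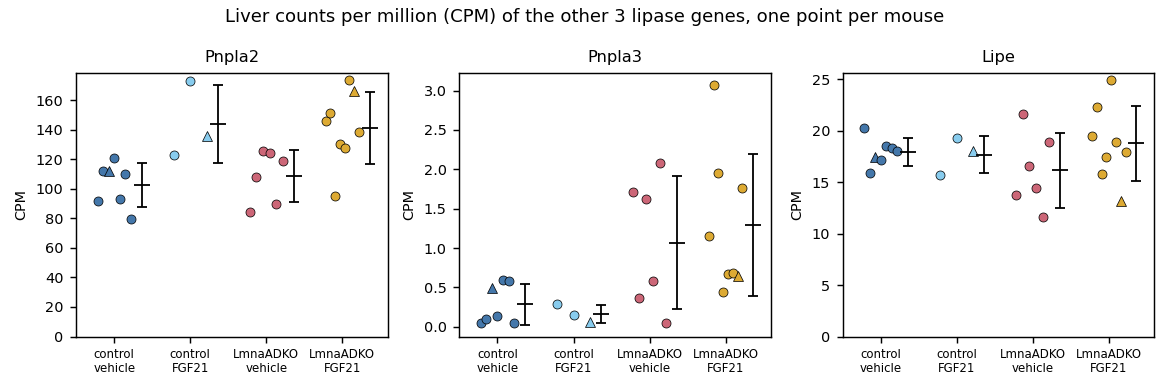
CPM (y axes, linear) of *Pnpla2*, *Pnpla3*, and *Lipe* in each library, by genotype and treatment (x axes), with points, triangles, and bars as in the plot of the other 6 genes. *Pnpla2* is higher with FGF21 than with vehicle in most mice of either genotype, *Pnpla3* is below 0.6 CPM in all controls, and *Lipe* overlaps between all 4 groups.

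*G0s2*, the inhibitor of ATGL, was the most variable member. Vehicle-treated controls had 86.2 to 139 CPM (median 120), and vehicle-treated *Lmna*ADKO livers had 29.5 to 116 (median 50.5), with 4 of 6 below all controls. The difference of -0.83 on the log2 scale did not pass the test (SE 0.405, adjusted p = 0.19). DESeq2 on these groups alone called it (-0.83, adjusted p = 0.0289). With FGF21, *Lmna*ADKO livers had 31.4 to 70.9 CPM (median 54.8), while the 3 controls had 39.9, 137, and 520. Only 2 of the 8 *Lmna*ADKO libraries lay below all 3 controls, and *G0s2* was called as lower in *Lmna*ADKO mice (log2 fold change -2.17, SE 0.452, adjusted p = 0.00854). Without replicate 3 of the FGF21-treated controls, at 520 CPM, the difference was -0.78 (adjusted p = 0.438). That library is among the 3 in which longer genes had relatively lower expression, and *G0s2* is the shortest of the 9 genes. With the length slope as a covariate, the log2 fold change of *G0s2* was -1.61 (adjusted p = 0.0422). The part of the length slope in this result was not tested beyond that fit.

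*Angptl4* did not differ with genotype under vehicle, with 115 to 158 CPM (median 132) in controls and 71.0 to 207 (median 147) in *Lmna*ADKO livers (log2 fold change 0.04, 95% interval -0.33 to 0.41, adjusted p = 0.951). The *Lmna*ADKO livers were the more variable, with a coefficient of variation of 34.3% against 11.1%. With FGF21, the 3 controls had 214, 256, and 323 CPM, and the *Lmna*ADKO livers 97.0 to 224 (median 144), with 7 of 8 below all controls. The log2 fold change between the genotypes was -0.82 (SE 0.211, adjusted p = 0.0241). This call was lost without replicate 2 (-0.84, adjusted p = 0.0769) or replicate 3 (-0.65, adjusted p = 0.207) of the FGF21-treated controls, and when the digits of the animal number entered the fit (-0.63, adjusted p = 0.127).

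In all, 4 of the 9 genes were called between genotypes with FGF21 (*Lipa* up, and *Lipc*, *G0s2*, and *Angptl4* down), where 2.88% of all genes were called, 387 up and 303 down. The median log2 fold change of the 9 genes was 0.09, beside 0.02 over all genes. The genotype comparisons share no library with each other. All FGF21-treated controls had 4-digit animal numbers, and among animals with such numbers, 4 *Lmna*ADKO against 3 control livers, 1 of the 9 genes was called, *Lipc* (adjusted p = 0.0116). Among vehicle-treated mice, 6 controls and 1 *Lmna*ADKO mouse had 3-digit numbers, and 1 control and 5 *Lmna*ADKO mice had 4-digit numbers, too few for a comparison within a series. Genotype and number series thus nearly coincide with vehicle. With the digits of the animal number in that fit, 1604 genes were called in place of 2033. Of the 9 genes, *Lipc*, *Lipa*, and *Pnpla3* were among them.

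**Figure D3:**
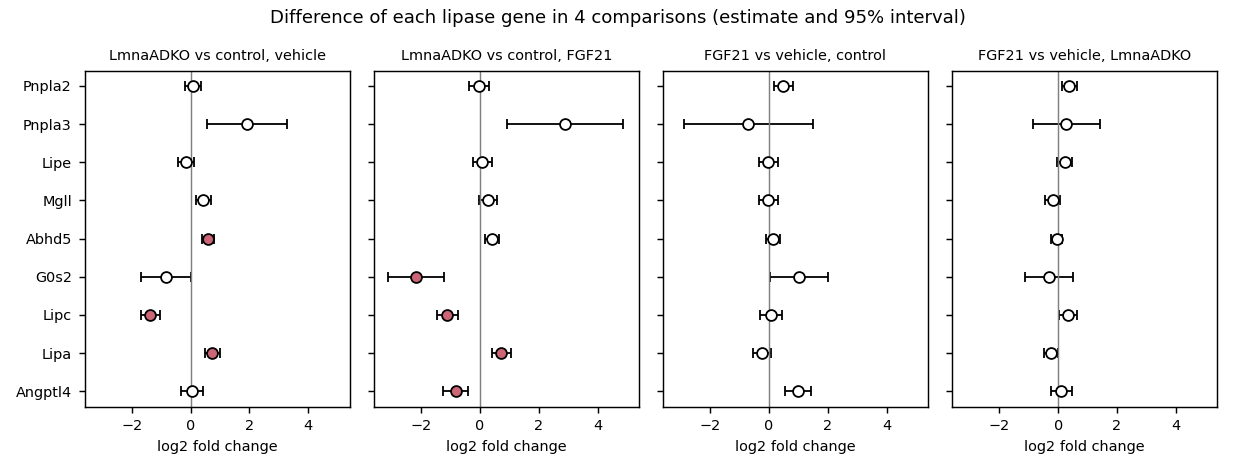
Log2 fold change (x axes) of each of the 9 genes (y axis) in the 4 comparisons, as the edgeR estimate with its 95% interval from the t distribution. Filled points passed the test and the fold limit: *Abhd5*, *Lipc*, and *Lipa* with vehicle, *G0s2*, *Lipc*, *Lipa*, and *Angptl4* with FGF21, and none for treatment.

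FGF21 treatment gave no call among the 9 genes in either genotype. In controls, 0.0542% of all genes were called (12 up and 1 down) and 1476 of 23972 had an unadjusted p under 0.05, as did 3 of the 9 genes. The difference with the smallest p was that of *Angptl4*, at 135 ± 15.0 CPM (SD, n = 7) with vehicle and 264 ± 54.9 (n = 3) with FGF21. All 3 FGF21-treated controls lay above all 7 vehicle-treated controls. The log2 fold change was 0.97 (SE 0.216, unadjusted p = 0.000112, adjusted p = 0.134), so that it did not pass over all genes. It was called by DESeq2 on all groups (0.99, adjusted p = 0.0176) and by edgeR on these groups alone (0.98, adjusted p = 0.0148). It was 0.63 (adjusted p = 1) when the digits of the animal number entered the fit, and in controls treatment and number series nearly coincide, since all 3 mice given FGF21 and 1 of 7 given vehicle had 4-digit numbers. In *Lmna*ADKO mice the same comparison gave 0.11 (95% interval -0.25 to 0.47, adjusted p = 0.905). The difference between these treatment effects was -0.86 (SE 0.28, unadjusted p = 0.00485, adjusted p = 0.984).

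*Pnpla2* was at 123, 173, and 136 CPM in FGF21-treated controls, above all vehicle-treated controls (log2 fold change 0.49, SE 0.159, adjusted p = 0.497). In FGF21-treated *Lmna*ADKO mice it was at 95.4 to 173 CPM (median 142), with 7 of 8 above all vehicle-treated *Lmna*ADKO libraries (log2 fold change 0.38, SE 0.128, adjusted p = 0.668). Neither passed the test. In *Lmna*ADKO mice, 0% of all genes were called for treatment by edgeR, whereas 1608 genes had an unadjusted p under 0.05 and DESeq2 called 15. Of the 9 genes, DESeq2 called 0 as well, and 3 had an unadjusted p under 0.05 in edgeR, namely *Pnpla2*, *Lipc* (0.35, SE 0.149, adjusted p = 0.704), and *Lipa* (-0.24, SE 0.117, adjusted p = 0.704). The estimates of the latter pair had the opposite sign to those of their genotype difference, and neither passed the test. These comparisons use the same vehicle-treated and FGF21-treated libraries as the genotype comparisons.

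For the interaction of genotype and treatment, 0 of the 9 genes and 0.00417% of all genes were called (1 gene, with 1165 at an unadjusted p under 0.05 and 11 called by DESeq2). DESeq2 called 0 of the 9 genes as well. *Angptl4* and *G0s2* were the 2 of the 9 genes with an unadjusted p under 0.05. For *G0s2* the estimate was -1.34 (SE 0.616, adjusted p = 0.984) and 0.05 without replicate 3 of the FGF21-treated controls.

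ATGL activity depends on the balance of its coactivator and inhibitor, so the reads on *G0s2* and *Abhd5* were also set against those on *Pnpla2* within each library. In vehicle-treated controls there was a median of 1.07 *G0s2* reads for each *Pnpla2* read (0.808 to 1.75), and in vehicle-treated *Lmna*ADKO livers 0.503 (0.328 to 1.07), with 5 of 6 below all controls. The mean log2 ratio differed by -1.04 (exact two-sided permutation test, p = 0.00699, adjusted p = 0.0326 over 8 comparisons of the ratios). With FGF21 the medians were 0.792 in controls and 0.347 in *Lmna*ADKO livers, a difference of -1.47 in log2 (exact permutation p = 0.0485, adjusted p = 0.097). In *Lmna*ADKO mice the difference with FGF21 was -0.58 (exact permutation p = 0.107, adjusted p = 0.143). The genotype call with vehicle was lost (adjusted p = 0.0556) without replicate 1 or 5 of the *Lmna*ADKO mice.

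The *Abhd5* to *Pnpla2* ratio was higher in *Lmna*ADKO livers with vehicle. Its median was 0.17 *Abhd5* reads for each *Pnpla2* read in vehicle-treated controls and 0.272 in vehicle-treated *Lmna*ADKO livers, a difference of 0.53 in log2 (exact permutation p = 0.00816, adjusted p = 0.0326), with 3 of 6 above all controls. This call was lost (adjusted p = 0.0556) without replicate 1, 2, or 5 of the vehicle-treated *Lmna*ADKO mice. Between genotypes with FGF21 the difference was 0.44 and did not pass (exact permutation p = 0.097, adjusted p = 0.143). In *Lmna*ADKO mice given FGF21 the median was 0.202, a difference from vehicle of -0.44 in log2 (exact permutation p = 0.0153, adjusted p = 0.0408), with 7 of 8 libraries below all vehicle-treated ones. The call for FGF21 in *Lmna*ADKO mice was lost in 10 of the 24 fits that left out a library. All 10 left out 1 of the 8 FGF21-treated or 6 vehicle-treated *Lmna*ADKO libraries, the only libraries that this test compares. In controls, the difference with FGF21 passed the test for neither ratio (-0.15 for *G0s2*, exact permutation p = 0.783, and -0.36 for *Abhd5*, exact permutation p = 0.167). With 3 against 7 libraries the smallest p was 0.00833. These ratios are of reads and not of protein, and both contain the counts of *Pnpla2*.

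**Figure D4:**
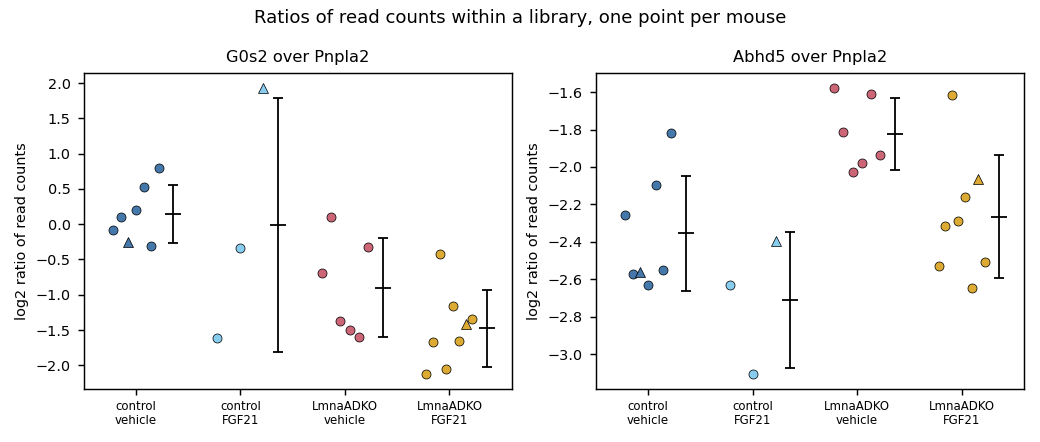
Log2 ratio of read counts within a library (y axes), with 2 added to each count, for *G0s2* over *Pnpla2* and *Abhd5* over *Pnpla2*, by genotype and treatment (x axes). Points are mice, triangles mark the 3 libraries in which longer genes had relatively lower expression, and bars give the mean ± SD. With vehicle, 5 of 6 *Lmna*ADKO livers lie below all controls in the first ratio, and in the second 7 of 8 FGF21-treated *Lmna*ADKO livers lie below all those given vehicle.

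Related genes were described by list. Of 13 other neutral lipases and their regulators, 1 rose with vehicle, *Pnpla5*, a count near the 8.48% of all genes called. *Pnpla5* was at 0.0705 ± 0.056 CPM (SD, n = 7) in controls and 0.433 ± 0.31 (n = 6) in *Lmna*ADKO livers. Its log2 fold change was 2.54 (adjusted p = 0.00761), from at most 17 reads in any of these libraries. *Pnpla7*, a lysophospholipase, passed the p threshold under the fold limit (0.34, adjusted p = 0.044). With FGF21, where 2.88% of all genes were called, *Daglb*, a diacylglycerol lipase, was the member of this list that was called (0.64, adjusted p = 0.0223). The list medians were 0.23 with vehicle and 0.06 with FGF21.

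Of 8 other secreted lipases and their regulators, 1 was called with vehicle, beside 8.48% of all genes. This was *Angptl8*, a feeding-induced secreted protein, which fell from 54.8 ± 19.3 CPM (SD, n = 7) to 17.5 ± 5.77 (n = 6). Its log2 fold change was -1.65 (SE 0.37, adjusted p = 0.00389). With FGF21 it was 45.8 ± 28.9 CPM (n = 3) and 18.0 ± 11.1 (n = 8), and the difference of -1.35 did not pass in edgeR (adjusted p = 0.0722). *Lpl*, lipoprotein lipase itself, was not called by edgeR with vehicle (0.51, adjusted p = 0.303) or FGF21 (1.27, adjusted p = 0.0882). DESeq2 called *Lpl* and *Angptl8* with FGF21.

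Of 12 other lysosomal genes, 0 rose and 1 fell with vehicle, and 7 had an unadjusted p under 0.05, beside 8.48% called and 6481 of 23972 at that p over all genes. The gene that fell was *Npc1*, which exports cholesterol from lysosomes (-0.60, SE 0.123, adjusted p = 0.00111). *Tfeb*, a regulator of lysosomal genes (-0.43, adjusted p = 0.00814), and *Lamp1*, a lysosomal membrane protein (0.36, adjusted p = 0.00832), passed the p threshold under the fold limit in opposite directions. With FGF21, 0 of the 12 were called by edgeR or DESeq2 (3 at an unadjusted p under 0.05). The list medians were -0.031 with vehicle and -0.0025 with FGF21. Across all 24 libraries, as deviations from the group means, *Lipa* was most alike to *Tubb2a* (Pearson r = 0.89), *Col4a2* (0.86), and *Tubb6* (0.85), which encode tubulins and a basement membrane collagen. *Lipc* was most alike to *Cyp27a1* (0.89), *Rdh7* (0.87), and *Ebp* (0.87), enzymes of sterol or retinoid metabolism. *Angptl4* was most alike to *Cebpd* (0.85), *Abhd5* to *Ociad1* (0.87), and *G0s2* to *Cenpb* (0.79). For *Abhd5* the value was 0.72 without the 3 libraries in which longer genes had relatively lower expression. These correlations describe libraries that share depth and composition.

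Several of the 9 genes are known targets of fasting and feeding signals, so genes under the same control were counted. Of 12 PPARα targets, 0 rose and 1 fell with vehicle (6 at an unadjusted p under 0.05, and 3 called by DESeq2), a count near the 8.48% of all genes. This was *Cyp4a10*, a fatty acid ω-hydroxylase (-1.04, SE 0.209, adjusted p = 0.000939), which also fell with FGF21 (-0.99, adjusted p = 0.0161). DESeq2 also called *Pdk4* and *Fgf21*, whose edgeR estimates with vehicle were positive (0.99, adjusted p = 0.0854, and 0.99, adjusted p = 0.0898). In edgeR, 6 of the 12 estimates with vehicle were positive. Of 9 SREBP1c and ChREBP targets, 3 rose with vehicle, beside 8.48% of all genes called. All 9 estimates were positive, beside 12029 of 23972 over all genes. *Scd1*, the stearoyl-CoA desaturase, had a log2 fold change of 3.00 (SE 0.561, adjusted p = 0.000871), and *Me1*, which supplies NADPH, had 0.89 (adjusted p = 0.00116). The median of this list was 0.62 with vehicle and 0.67 with FGF21. Between genotypes with FGF21, edgeR called *Scd1* (4.16, adjusted p = 0.00673), beside 2.88% of all genes. DESeq2 called *Scd1*, *Pklr*, and *Me1* there. With vehicle, DESeq2 called 4 of the 9, namely *Scd1*, *Me1*, *Thrsp*, and *Fasn*, the first 3 of which were called by edgeR. Of 6 FOXO1 targets, 0 rose and 1 fell with vehicle (2 at an unadjusted p under 0.05), beside 8.48% of all genes called. It was *Irs2*, an insulin receptor substrate (-0.92, adjusted p = 0.0072), also the 1 called by DESeq2. *Foxo1* passed the p threshold under the fold limit (0.51, adjusted p = 0.0334), and 4 of the 6 estimates were positive. Between genotypes with FGF21, 0 were called by edgeR or DESeq2 (2 at an unadjusted p under 0.05), and all 6 estimates were negative (median -0.47). Over all genes, 12340 of 23972 estimates were positive there. In controls, all 6 estimates for FGF21 against vehicle were positive (median 0.73, 3 at an unadjusted p under 0.05), beside 11210 of 23972 over all genes. Both comparisons use the 3 FGF21-treated controls. For treatment, edgeR called 0 of the 60 genes of these 6 lists in either genotype, with 6 in controls and 3 in *Lmna*ADKO mice at an unadjusted p under 0.05, and DESeq2 called 1 (*Foxo1* in controls).

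**Figure D5:**
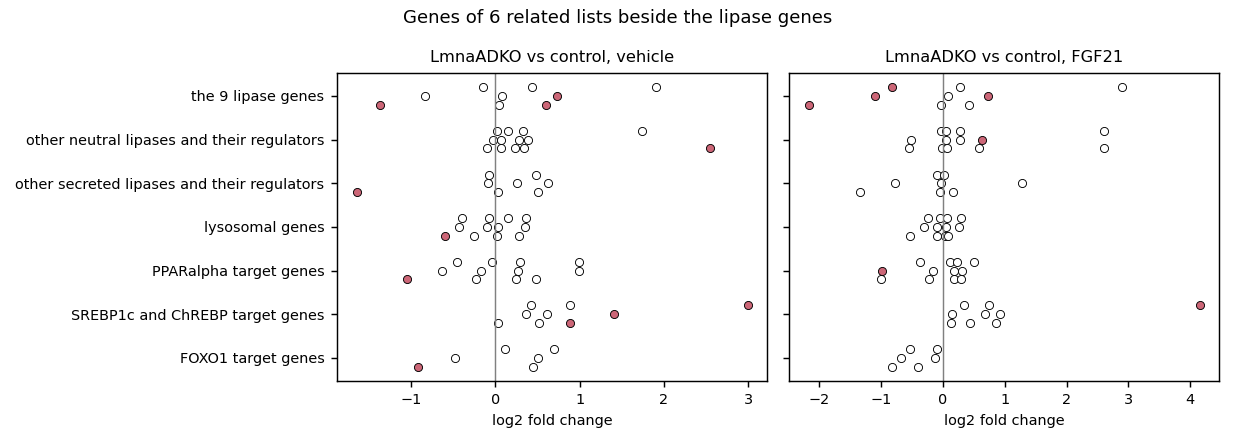
Log2 fold change (x axes) between *Lmna*ADKO and control livers of the 9 lipase genes and of 6 lists of related genes (y axis), with vehicle and with FGF21. Each point is a gene, filled where it was called, and the vertical offset only separates points. The 9 SREBP1c and ChREBP targets all lie to the right of 0 with vehicle, and the 6 FOXO1 targets all lie to the left of 0 with FGF21.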

How the data were processed

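PolyA-selected liver RNA-Seq of 24 mice was used. The authors deposited a table of raw counts per gene, with no normalization. The submitters' processing notes name cutadapt 4.8, FastQC 0.11.8, STAR 2.7.8a, RSEM 1.3.3, and GRCm38. All values were whole numbers, and every column was matched to a sample. Whether the values are rounded expected counts from RSEM or the output of another counter is not stated. They were treated as read counts. Positions came from GENCODE M21, which holds 23900 of the 23972. Promoter windows were RefSeq sequences on GRCm38.p6.

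Counts were TMM-scaled and analysed by the quasi-likelihood F test of edgeR 4.0.16 (R 4.3.3, robust fit), with all 4 groups and all genes in 1 model and Benjamini-Hochberg adjustment. DESeq2 1.42.0 was an alternative. Calls required an adjusted p under 0.05 and a fold above 1.5. The procedure was tested on simulated data. For log2 ratios of counts plus 2, exact permutation tests (two-sided) were used. Libraries were grouped by the genotype and treatment labels, and numbered in accession order. In edgeR, the p-values set a group difference against the spread between mice, estimated over all 4 groups together. Counting error at 3 reads or fewer limits *Pnpla3*. The 67 pairs of libraries within groups differed by more than sampling noise (chi-square per degree of freedom 14.1 to 196), and none was merged. All 9 genes are named, with up to 3 genes per list, those with the smallest p, and for each called member the genes most alike in within-group deviations of log2 CPM, among 12491 genes with a mean of at least 0. The members and lists were chosen with earlier results of these data known. *Cpa1*, of the exocrine pancreas list, is not analysed here.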

Additional observations from a re-analysis of the deposited data

Results flagged for a closer look

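Of 33 groups of lipase values or ratios tested for a sample far from the others, 2 were picked out, where chance gives about 1 in 20. Replicate 2 of the vehicle-treated controls had 332 CPM of *Mgll*, with the next at 251 and the lowest at 226. Without that library the genotype difference of *Mgll* with vehicle was 0.51 on the log2 scale in place of 0.43. Replicate 7 of the FGF21-treated *Lmna*ADKO mice had 39.7 CPM of *Abhd5*, with the next at 31.1 and the lowest at 24.2. It is one of the 3 libraries in which longer genes had relatively lower expression. Without it the genotype difference of *Abhd5* with FGF21 was 0.33.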

How the results depend on the processing

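Over the alternatives tried, 1408 of 1485 fold changes of single lipase genes kept their direction and their side of the threshold, 12 lost and 18 gained a call, and 47 that were not called changed sign. Lipase genes called with vehicle numbered 3 to 4 when 1 library was left out and 5 with DESeq2 on the groups compared. With FGF21 between genotypes they numbered 2 to 4 when 1 library was left out and 2 with only the groups compared. They numbered 2 without the 3 libraries in which longer genes had relatively lower expression. Among 4-digit animal numbers, an alternative chosen after seeing the data, the number was 1. For FGF21 in controls they numbered 0 to 1 when 1 library was left out (1 without *Lmna*ADKO vehicle replicate 1), and 1 with DESeq2 on all groups, DESeq2 on the groups compared, or edgeR on the groups compared. All genes called with vehicle were 3623 by adjusted p alone. With FGF21 between genotypes they were 344 with only the groups compared, 307 among 4-digit numbers, 402 without the 3 libraries, and 339 to 1149 when 1 library was left out. For FGF21 in controls they were 38 and 40 by DESeq2 on all groups and on those compared, 0 with the number series as a covariate, and 3 to 26 when 1 library was left out. For FGF21 in *Lmna*ADKO mice they were 15 and 19 by DESeq2, 2 among 4-digit numbers, and 0 to 61 when 1 library was left out. For the interaction they were 11 by DESeq2, 2 with DESeq2 size factors, 2 after the filter on low counts, 0 with the number series, 3 with the length slope, 5 without the 3 libraries, and 0 to 5 when 1 library was left out.

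Leaving out 1 library moved the log2 *G0s2* to *Pnpla2* ratio between genotypes from -1.24 to -0.90 with vehicle (adjusted p up to 0.0556), and from -2.28 to -0.50 with FGF21, where it was called without replicate 1 of the controls. For FGF21 in controls it ran from -1.12 to 0.66 and turned positive without replicate 1 (0.66) or 2 (0.018) of the FGF21-treated controls. The *Abhd5* ratio ran from 0.48 to 0.62 between genotypes with vehicle (adjusted p up to 0.0556), and from -0.53 to -0.39 for FGF21 in *Lmna*ADKO mice (adjusted p up to 0.0932). The causes were not tested. No paired analysis was possible because the labels give the groups no shared replicate numbers.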
